A study of Drosophila melanogaster with 18 samples.

Results

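The nuclear genes that encode subunits of the oxidative phosphorylation machinery were followed through the last syncytial cycles and the start of zygotic transcription in Drosophila melanogaster embryos of different ploidy. Members were the probe sets with 1 annotated gene symbol that begins with ND- (complex I, NADH dehydrogenase), UQCR- (complex III, cytochrome bc1), COX (complex IV, cytochrome c oxidase) or ATPsyn (ATP synthase), with the brightest probe set standing for each gene. The rule gave 66 genes of the 11982 single-symbol genes on the array, 32 in complex I, 6 in complex III, 14 in complex IV and 14 in ATP synthase. They lie on 6 chromosome arms, 15 on 2L, 12 on 2R, 15 on 3L, 13 on 3R, 1 on 4 and 10 on X.

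Total RNA from staged embryos was hybridised to 18 Affymetrix arrays, 3 biological replicates of about 50 hand-selected embryos in each of 6 groups. The haploid groups, whose genotype is given as maternal haploid with histone H2-GFP parents, were collected in cycle 14 (15 min after the division of cycle 13), in early cycle 15 (15 min after the division of cycle 14) and in late cycle 15 (40 min after it). The diploid groups, given as w with histone H2-GFP parents, were collected in cycle 13 (15 min after the division of cycle 12), in early cycle 14 (15 min after the division of cycle 13) and in late cycle 14 (40 min after it). Each haploid group has a diploid counterpart 1 cycle earlier with the same nuclear to cytoplasmic ratio, and haploid cycle 14 also shares its cycle and minutes with diploid early cycle 14. All groups carried the histone reporter and were raised at the same temperature. Haploid embryos came from maternal haploid mothers, so ploidy and the mother's genotype cannot be told apart.

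Oxidative phosphorylation takes place at the inner mitochondrial membrane. Complex I takes electrons from NADH, complex III passes them to cytochrome c, complex IV hands them to oxygen, and ATP synthase uses the proton gradient that these complexes build. Fly eggs are loaded with maternal mitochondria and maternal mRNA for these proteins, and early in embryogenesis maternal mRNAs are degraded while the zygotic genome is switched on. Each complex mixes catalytic core subunits with accessory subunits, and the fly genome holds second copies of several subunit genes, many of which are known for expression in the testis.

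Intensities were quantile normalised, so a level is an intensity on one shared distribution and a difference is relative to the other transcripts on the array. As deposited, the upper quartile of intensities was 85.6 to 137.3 on the haploid arrays, against 128.0 to 268.5 on the diploid arrays. The choice of scale therefore matters for the sign of small differences. The median difference over all 5691 genes at or above background in haploid cycle 14 minus diploid early cycle 14 was 0.05 on the log2 scale after quantile normalisation, -0.07 with arrays centred on their median, -0.17 centred on ribosomal protein genes, -0.69 centred on the spiked poly-A controls and -0.76 as deposited. Counts of members and of all tested genes under these 4 other scales are given beside each comparison. Intensities of different probe sets are not comparable, so no gene's level is set against another's, and 3 arrays a group limit the precision of each value. Of the measured members, 10 (ND-15, ND-19, ND-20, ND-B14.7, ND-MNLL, ND-PDSW, ATPsynC, ATPsynD, ATPsynE and ATPsynF) are read by probe sets of a kind that can match transcripts of more than 1 gene.

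Of the 66 genes, 47 had a mean level at or above background, an intensity of 31.9, and 46 of these were above it on all 18 arrays (the exception, UQCR-11, on 15). They cover 26 genes of complex I, 4 of complex III, 7 of complex IV and 10 of ATP synthase. For these 47 genes the highest of the 6 group means was a median of 1.36 times the lowest, against 2.24 times for the 5691 genes measured in the same way. The range stayed under 1.5-fold for 33 of the 47 genes. It reached 2-fold in 5 genes (10.6%), against 58.7% of all measured genes. The median replicate SD on the log2 scale was 0.10 for these genes and 0.15 for all measured genes. Small changes were not particular to this set. In diploid early cycle 14 against diploid cycle 13 the median absolute log2 difference was 0.14 for these genes and 0.38 for all measured genes. It was 0.03 for cytoplasmic ribosomal protein genes, 0.16 for further subunits under other symbols and 0.19 for mitochondrial ribosomal protein genes. For genes of the tricarboxylic acid cycle and of glycolysis it was 0.26 and 0.97. These shares and medians are descriptions on the quantile scale, since genes are not replicates. The sets were not matched for intensity. ATPsynB, a subunit of the peripheral stalk of ATP synthase, had the smallest range, with means of 2693 ± 82.5, 2905 ± 427 and 2756 ± 149 in haploid cycle 14, early and late cycle 15, and 2749 ± 82.6, 2978 ± 132 and 2925 ± 21.1 in diploid cycle 13, early and late cycle 14 (SD, n = 3 each).

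**Figure D1:**
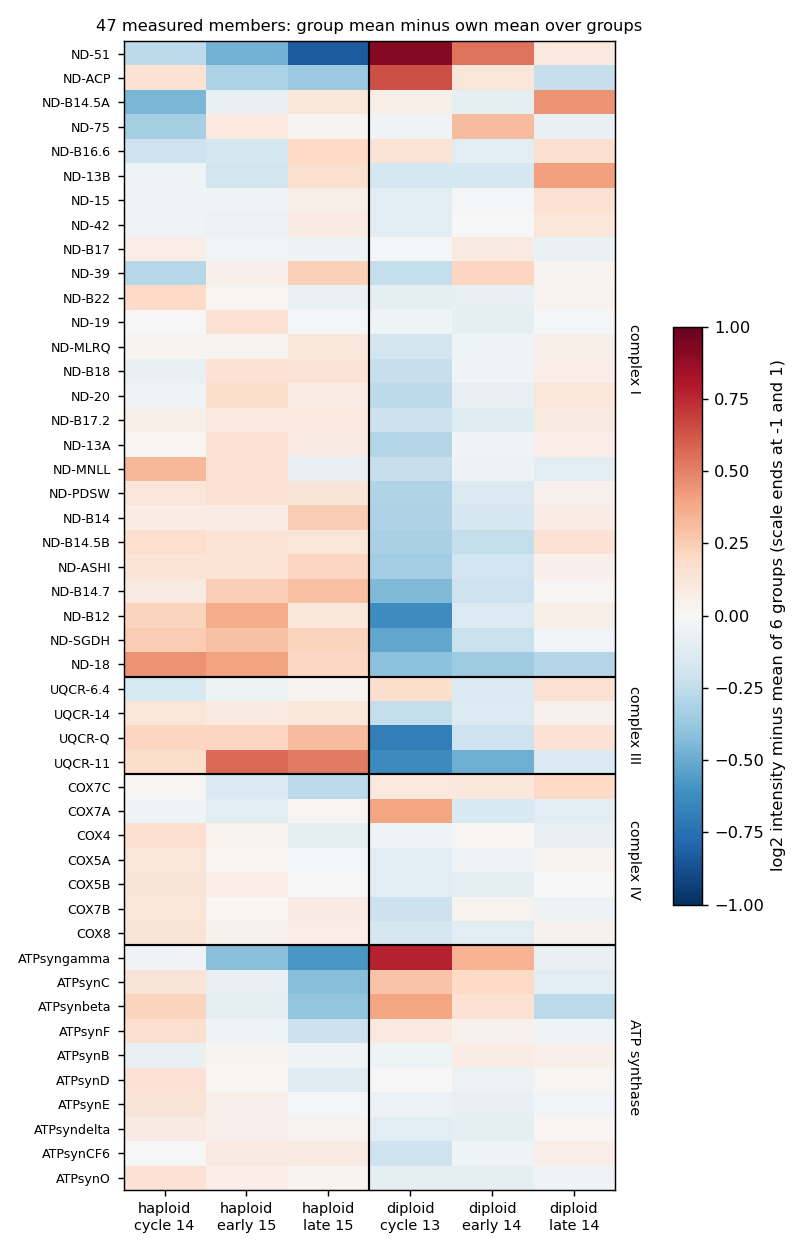
Group means of the 47 members at or above background, each as log2 intensity minus the gene's own mean over the 6 groups (colour, ends at -1 and 1), with haploid groups left of diploid groups and genes ordered within a complex by haploid minus diploid. Most rows are pale, and ND-51 and ATPsyngamma stand out as lower in the haploid columns than in the diploid columns.

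The 5 genes with a range of at least 2-fold were ND-51 (3.35-fold), ATPsyngamma (2.55-fold), ND-ACP (2.02-fold), UQCR-Q (2.01-fold) and UQCR-11. The fold of UQCR-11 is not given, since its lowest group, diploid cycle 13, averaged 30.4 with 1 of 3 arrays above background. ND-51 encodes the flavoprotein of complex I that binds NADH and the first electron acceptor. Its intensities were 444, 359 and 436 in haploid cycle 14, 367, 332 and 369 in haploid early cycle 15, and 275, 319 and 242 in haploid late cycle 15. They were 1017, 829 and 949 in diploid cycle 13, 765, 692 and 692 in diploid early cycle 14, and 538, 525 and 519 in diploid late cycle 14. Every haploid array lay below every diploid array, and within diploids the 3 stages did not overlap.

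The other 19 genes were at or near background. They are ND-B8, an accessory subunit of complex I, and 18 second copies, whose symbols end in L or in L and a number (ND-20L, ND-24L, ND-51L1, ND-51L2, ND-B14.5AL, UQCR-11L, UQCR-14L, COX4L, COX5BL, COX6AL, COX6AL2, COX6CL, COX7AL, COX7AL2, ATPsynCF6L, ATPsynGL, ATPsynbetaL and ATPsynepsilonL). Of the second copies, 12 were below background on all 18 arrays, as was ND-B8. ATPsynbetaL was above it on 9 arrays, ND-20L, ND-51L2 and ATPsynepsilonL on 2 each, and COX4L and ATPsynGL on 1 each. The highest value of any second copy was 53.7. Over their 324 array values, 17 were above background. By contrast, the probe sets of the first copies that were read on this array (ND-20, ND-51, ND-B14.5A, UQCR-14, COX4, COX5B, COX7A, ATPsynCF6 and ATPsynbeta, with levy for COX6AL and COX6AL2, cype for COX6CL and sun for ATPsynepsilonL) were above background on all 18 arrays, and UQCR-11 on 15. Of the 18 second copies, 12 passed the filter on low values, and limma called none of them in any of the 10 contrasts (5 of their 120 tests had an unadjusted p below 0.05). Of a list of 8 testis genes, 6 were below background on all arrays in each of the 6 groups. Mst98Ca was above it on 11 of the 18 arrays, with a highest value of 53.9. The gene bam, a germline differentiation factor, was above it on all 18, with means of 966, 615 and 346 in the haploid groups and 992, 558 and 399 in the diploid groups, in order of stage.

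**Figure D2:**
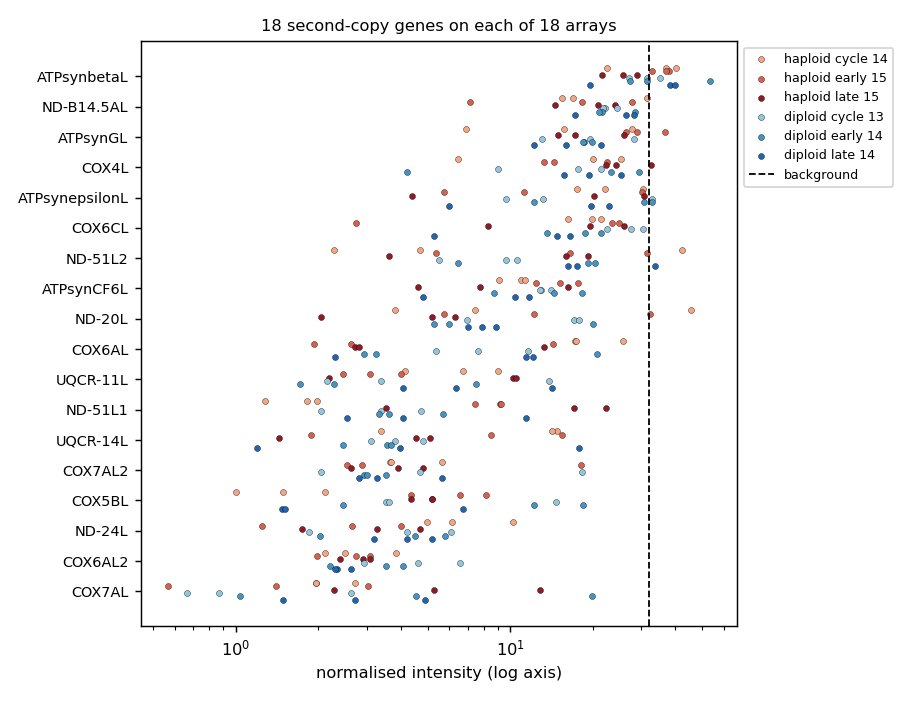
Normalised intensity (log axis) of the 18 second-copy genes on each of 18 arrays, coloured by group, with the background of 31.9 as a dashed line. All points of 12 genes lie left of the line, and 9 of the 18 points of ATPsynbetaL lie right of it.

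The first question about stage was what changed in diploid embryos over the last syncytial division. In diploid early cycle 14 against diploid cycle 13, 7 of the 66 genes were higher and 6 lower at an adjusted p below 0.05 (limma, 59 genes tested). These are 11.9% and 10.2% of the tested members, against 19.8% and 13.1% of all 10022 tested genes. Such shares, here and below, are not like for like. Of the 59 tested members 47 were at or above background, against 5691 of the 10022 tested genes, and dim genes were called less often. In none of the 4 steps below were 43.9% of all tested genes called, against 13.9% of those at or above background. The median log2 difference of the 47 measured members was 0.09, against 0.14 for all measured genes. The higher genes included ND-SGDH, an accessory subunit of complex I in the membrane arm, at 0.30 ± 0.06 (log2, SE, limma adjusted p = 0.00052). They also included UQCR-Q, a subunit of complex III, at 0.49 ± 0.10 (adjusted p = 0.00066). ND-13A, another accessory subunit of complex I, had 1732, 1713 and 1903 in diploid early cycle 14, against 1457, 1538 and 1452 in diploid cycle 13 (adjusted p = 0.0047). The lower genes were ND-ACP, ND-51, ATPsynbeta, ATPsyngamma, COX7A and UQCR-6.4.

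COX7A, an accessory subunit of complex IV, had 1329, 1217 and 1228 in diploid early cycle 14, against 1752, 1618 and 2168 in diploid cycle 13. The groups did not overlap, and it fell by 0.54 ± 0.08 on the log2 scale (adjusted p = 1.6e-05). It averaged 1301 ± 22.2 in diploid late cycle 14 (SD, n = 3). ND-ACP, the mitochondrial acyl carrier protein that is also a subunit of complex I, had 1152, 1036 and 1233 in diploid early cycle 14, against 1530, 1679 and 1707 in diploid cycle 13. It fell by 0.52 ± 0.08 (adjusted p = 1.3e-05), with no overlap, and its other 2 probe sets fell by 0.68 and 0.72. The split of calls turned with the scale. It was 22 higher and 0 lower as deposited, 0 and 3 centred on the median, 0 and 7 centred on ribosomal protein genes, and 0 and 0 centred on poly-A controls, and no member's change in this step held under all 5 scales. The counts of all tested genes were, in the same order of scales, 2111 and 1162, 529 and 1647, 358 and 1851, and 346 and 1172. Without replicate 3 of diploid cycle 13 the members' higher count was 4, and ATPsyngamma was no longer called (adjusted p = 0.0512).

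Within diploid cycle 14, late against early, 11 members were higher and 6 lower, 18.6% and 10.2% of those tested, against 17.4% and 16.3% of all genes. The median difference was 0.10, against 0.05 for all measured genes. The 6 lower genes were ND-51, ND-75, ND-ACP, ATPsyngamma, ATPsynbeta and ATPsynC, and these 6 were lower under all 5 scales, 10.2% of the tested members against 15.9% of all tested genes. ND-51 fell by 0.44 ± 0.11 (adjusted p = 0.0021). ATPsyngamma, the central stalk that turns inside the catalytic head of ATP synthase, had 2127, 1757 and 2140 in diploid late cycle 14, against 2743, 2728 and 2586 in diploid early cycle 14. It fell by 0.42 ± 0.12 (adjusted p = 0.011), and its second probe set fell by 0.59 (adjusted p = 7.2e-05). The groups did not overlap, although without replicate 2 of diploid late cycle 14 its adjusted p was 0.0852.

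ATPsynC, the subunit of the membrane rotor ring, had 5499, 6228 and 5548 in diploid late cycle 14, against 7452, 7117 and 6745 in diploid early cycle 14, and fell by 0.30 ± 0.07 (adjusted p = 0.00091). ATPsynbeta, the catalytic subunit, had 3021, 3522 and 3309 in diploid late cycle 14, against 4484, 4354 and 4238 in diploid early cycle 14, and fell by 0.41 ± 0.07 (adjusted p = 3.6e-05). Neither gene's groups overlapped. A second, dimmer probe set of ATPsynbeta went the other way, with 949, 949 and 846 in diploid late cycle 14, against 596, 489 and 482 in diploid early cycle 14, a difference of 0.81 (adjusted p = 1.2e-06). The direction of ATPsynbeta in this step thus depended on the probe set, as it did in the haploid second step. In the diploid first step both probe sets were lower, by -0.25 and -1.02 for the chosen and the dimmer one (limma, adjusted p = 0.0058 and 5.8e-08).

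The 11 higher genes of this step were 9 of complex I and 2 of complex III. ND-B14.5A, an accessory subunit of complex I, had 632, 650 and 631 in diploid late cycle 14, against 439, 441 and 432 in diploid early cycle 14. It rose by 0.54 ± 0.11 with no overlap (adjusted p = 0.00034). ND-13B and ND-B14.5B, accessory subunits too, rose by 0.58 ± 0.17 and 0.38 ± 0.09 (adjusted p = 0.013 and 0.0024). On the poly-A scale ND-B14.5A, ND-13B and ND-B14.5B turned to -0.13, -0.16 and -0.14. ND-13B lost its call on the quantile scale without replicate 1 of diploid early cycle 14 or replicate 2 of diploid late cycle 14 (adjusted p of up to 0.0892). These higher calls rested on quantile normalisation. No member was called higher as deposited or under the 3 centred scales, where 9 were lower as deposited, 9 centred on the median, 8 centred on ribosomal protein genes and 10 centred on poly-A controls. In the same order of scales, 516, 613, 667 and 361 of all tested genes were higher, and 2317, 2385, 2121 and 2675 lower. Even on the quantile scale the members' higher count was 4 without replicate 2 of diploid early cycle 14 and without replicate 1 or 2 of diploid late cycle 14. It was 6 without replicate 1 of diploid early cycle 14 and 7 without replicate 3 of diploid late cycle 14.

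Over both diploid steps, 37 of the 59 tested members were called in neither (62.7%, against 53.0% of all tested genes). Among genes at or above background these shares were 53.2% of members and 25.0% of all genes. On the quantile scale ND-51, ND-ACP, ATPsyngamma and ATPsynbeta fell in each step, while ND-SGDH, ND-B14.7 and UQCR-Q rose in each. ND-75, a core iron-sulfur subunit of complex I, was higher in the first step and lower in the second. The steps share the early cycle 14 arrays, so a high or low value there enters both.

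In haploid early cycle 15 against haploid cycle 14, 3 members were higher and 5 lower, 5.08% and 8.47% of those tested, against 11.7% and 12.4% of all genes. The median difference was -0.03, against 0.02 for all measured genes. ND-ACP had 836, 869 and 813 in haploid early cycle 15, against 1100, 1099 and 1275 in haploid cycle 14, and fell by 0.46 ± 0.08 (adjusted p = 8.9e-05). ATPsynbeta had 3743, 3990 and 3423 in haploid early cycle 15, against 4424, 4643 and 4734 in haploid cycle 14, and fell by 0.31 ± 0.07 (adjusted p = 0.0013). ATPsynC, ATPsynF and ATPsyngamma were the other lower genes. ND-75, ND-B14.5A and ND-20, another core subunit of complex I, were higher by 0.42 ± 0.12, 0.38 ± 0.11 and 0.21 ± 0.07 (adjusted p = 0.011, 0.012 and 0.039).

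The calls of this first haploid step depended on the scale, with 18 higher and 0 lower as deposited, 36 and 0 centred on poly-A controls, 0 and 4 centred on the median and 0 and 3 centred on ribosomal protein genes. The counts of all tested genes were, in the same order of scales, 2300 and 585, 3356 and 271, 550 and 1662, and 630 and 1388. No member's change held under all 5 scales. ATPsynC and ATPsynbeta turned to 0.45 and 0.35 on the poly-A scale and to 0.21 and 0.11 as deposited, and ND-ACP to 0.08 on the poly-A scale. Without replicate 1 of haploid cycle 14 the higher count was 1. The calls of ND-75 (without replicate 2 of either group), ND-B14.5A (without replicate 1 of either group), ND-20 (without any array other than replicate 2 of haploid cycle 14) and ATPsynC (without replicate 1 or 2 of haploid cycle 14 or replicate 1 or 3 of haploid early cycle 15) were lost when 1 array was left out, with adjusted p of up to 0.21.

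Within haploid cycle 15, late against early, 1 member was higher and 5 were lower, 1.69% and 8.47% of those tested, against 16.6% and 17.9% of all genes. The median difference was -0.03, against -0.02 for all measured genes, and the median absolute difference was 0.08, against 0.40. ATPsynC had 4553, 4593 and 4714 in haploid late cycle 15, against 5871, 6556 and 5200 in haploid early cycle 15, and fell by 0.34 ± 0.07 (adjusted p = 0.00024). ATPsynbeta had 3112, 2934 and 2972 in haploid late cycle 15 and fell by 0.30 ± 0.07 (adjusted p = 0.00094), while its dimmer probe set differed by 0.79 (adjusted p = 1.4e-06). ND-51 fell by 0.36 ± 0.11 (adjusted p = 0.010). These 3 genes were lower under all 5 scales (5.08% of tested members, against 14.4% of all genes), and ND-51 lost its call without replicate 3 of haploid late cycle 15 (adjusted p = 0.086). ATPsynF and ND-MNLL were the other lower genes, and ND-B16.6 was the higher one, at 0.37 ± 0.10 (adjusted p = 0.0055, and 0.0527 without replicate 1 of haploid late cycle 15), which turned to -0.35 on the poly-A scale.

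The scale again moved this last step. The counts were 0 higher and 4 lower as deposited and centred on the median, 0 and 6 centred on ribosomal protein genes, and 0 and 43 centred on poly-A controls. All tested genes had 1221 higher and 1535 lower as deposited and 1390 and 1640 centred on the median. They had 1363 and 1632 centred on ribosomal protein genes, and 532 and 3716 centred on poly-A controls. The members' lower count was 3 without replicate 3 of haploid early cycle 15 or without replicate 1 of haploid late cycle 15. Their higher count was 2 without replicate 1 of haploid early cycle 15. ATPsynbeta was the only member whose chosen probe set was called in all 4 steps of both ploidies, 2.13% of the 47 measured members against 13.5% of all measured genes, and 23 of the 47 (48.9%, against 13.9%) were called in none. Both other probe sets of ND-ACP and the second of ATPsyngamma were also called lower in all 4 steps. In the haploid second step these differed by -0.29, -0.41 and -0.45 (limma, adjusted p = 0.018, 0.0060 and 0.0012).

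**Figure D3:**
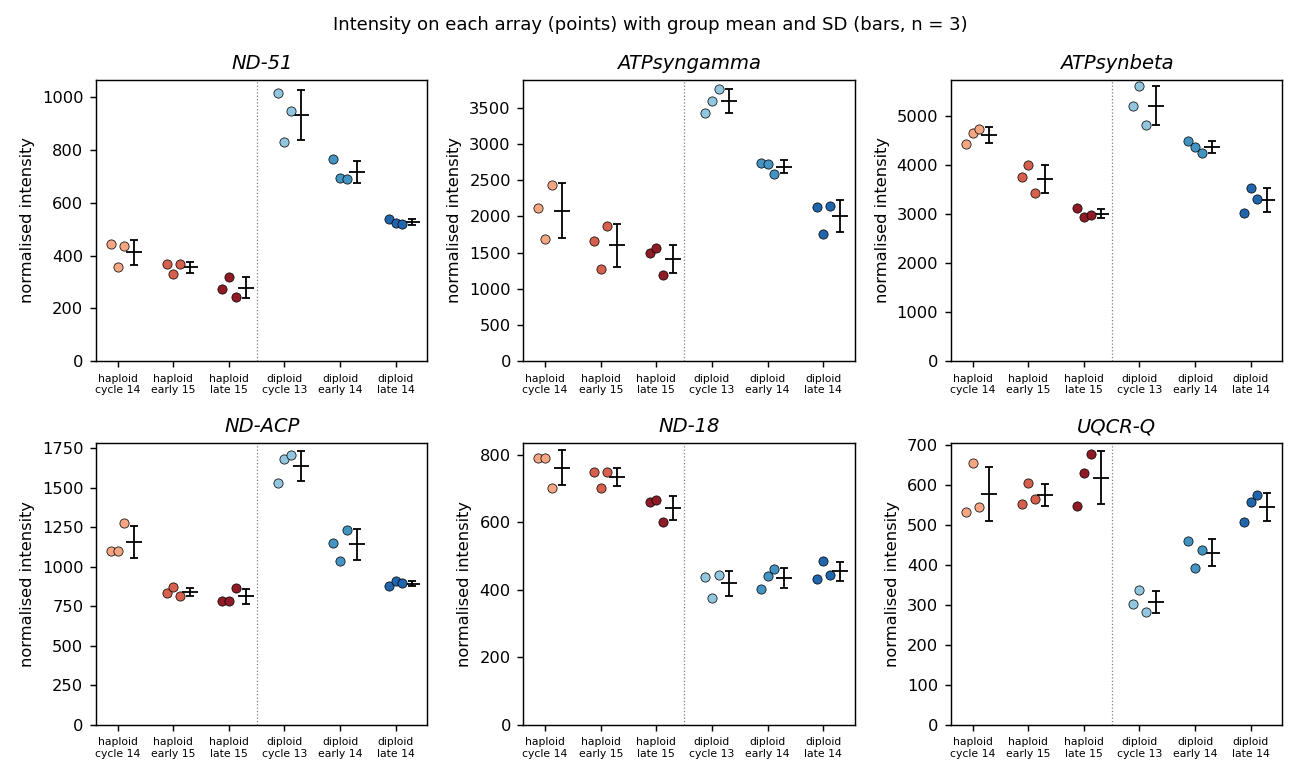
Normalised intensity of ND-51, ATPsyngamma, ATPsynbeta, ND-ACP, ND-18 and UQCR-Q on each array (points, 3 per group), with the group mean and SD beside them, and haploid groups left of diploid groups. ND-51 lies between 242 and 444 in haploids and between 519 and 1017 in diploids, while ND-18 lies between 601 and 791 in haploids and between 375 and 486 in diploids.

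Haploid and diploid embryos were then compared at the same nuclear to cytoplasmic ratio. At each matched stage the haploid group was 1 cycle later, so ploidy and cycle cannot be told apart there. In haploid cycle 14 against diploid cycle 13, 26 members were higher and 8 lower, 44.1% and 13.6% of those tested, against 24.3% and 18.2% of all genes. The median difference was 0.21, against 0.15 for all measured genes. By complex, 14 genes of complex I were higher and 4 lower, 3 and 1 of complex III, 5 and 1 of complex IV, and 4 and 2 of ATP synthase. This majority of higher calls held with arrays centred on their median (23 higher, 9 lower). It did not hold centred on ribosomal protein genes (9 higher, 11 lower), as deposited (1 higher, 14 lower) or centred on poly-A controls (0 higher, 15 lower). Centred on the median, 1244 of all tested genes were higher and 2426 lower. Centred on ribosomal protein genes, 480 were higher and 2898 lower. As deposited they were 191 and 3503, and centred on poly-A controls 132 and 3602.

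In haploid early cycle 15 against diploid early cycle 14, 13 members were higher and 6 lower, 22.0% and 10.2% of those tested, against 16.4% and 15.1% of all genes, with a median difference of 0.10, against 0.06. The other scales gave 2 higher and 8 lower centred on the median, 3 and 10 centred on ribosomal protein genes, 0 and 12 as deposited and 1 and 2 centred on poly-A controls. The counts of all tested genes were, in the same order of scales, 297 and 2289, 299 and 2299, 167 and 2865, and 241 and 1478. Without replicate 1 of diploid early cycle 14 the members' higher count was 8. In haploid late cycle 15 against diploid late cycle 14 the counts were 3 and 6, 5.08% and 10.2% of those tested, against 11.2% and 14.2% of all genes, with a median difference of 0.01 for both. The other scales gave 2 and 4 centred on the median, 1 and 5 centred on ribosomal protein genes, 0 and 5 as deposited and 0 and 4 centred on poly-A controls. All tested genes had 669 and 1219, 461 and 1435, 262 and 1517, and 146 and 1370 in that order of scales. The median absolute difference of the members was 0.29, 0.18 and 0.10 at the 3 matched stages in order, against 0.50, 0.36 and 0.31 for all measured genes. It was 0.06, 0.05 and 0.05 for cytoplasmic and 0.47, 0.31 and 0.17 for mitochondrial ribosomal protein genes.

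ND-51 and ATPsyngamma were lower in haploids at all 3 matched stages under all 5 scales and, on the quantile scale, whichever of the 6 arrays was left out. ND-51 differed by -1.18 ± 0.11, -1.01 ± 0.11 and -0.93 ± 0.11 in order of stage (log2, SE, limma adjusted p = 3.25e-09, 8.3e-08 and 3.05e-07). In embryo pools, fewer cells with the transcript and less of it per cell cannot be told apart. ATPsyngamma had 2115, 1687 and 2438 in haploid cycle 14, against 3429, 3587 and 3759 in diploid cycle 13. It had 1664, 1275 and 1861 in haploid early cycle 15, against the diploid early cycle 14 values above, and 1491, 1560 and 1196 in haploid late cycle 15, against the diploid late cycle 14 values above. The groups did not overlap at any of these stages. The differences were -0.80 ± 0.12, -0.76 ± 0.12 and -0.51 ± 0.12 (adjusted p = 1.1e-05, 4.3e-05 and 0.0037), and those of its second probe set were -0.82, -0.88 and -0.74.

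At the first matched stage, 7 members were lower under all 5 scales, which is 11.9% of the tested members against 17.2% of all tested genes. Besides ND-51 and ATPsyngamma these were ND-ACP, ND-B14.5A, ND-B16.6, COX7A and UQCR-6.4. ND-B14.5A had 295, 363 and 364 in haploid cycle 14, against 458, 442 and 565 in diploid cycle 13, without overlap (-0.52 ± 0.11, adjusted p = 0.00039). COX7A had 1316, 1368 and 1372 in haploid cycle 14, against the 1618 or more of diploid cycle 13 (-0.44 ± 0.08, adjusted p = 0.00012). At the same cycle, haploid cycle 14 against diploid early cycle 14, ND-ACP differed by 0.02 on the quantile scale (limma, adjusted p = 0.9). In that comparison UQCR-6.4 averaged 745 against 751, COX7A 1352 against 1258 and ND-B16.6 317 against 338. ND-B14.5A was lower in it under all 5 scales, as given below. At the early stage ND-51 and ATPsyngamma were the members lower under all 5 scales (3.39%, against 12.5% of all genes). ND-ACP was lower under 4 of them, with an adjusted p of 0.055 on the poly-A scale (limma). On the quantile scale its other probe sets gave -0.70 and -0.15 there (limma, adjusted p = 2.2e-06 and 0.405).

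At the late stage the members lower under all 5 scales were ND-51, ATPsyngamma, ND-B14.5A and COX7C (6.78%, against 11.6% of all genes). COX7C, an accessory subunit of complex IV, had 2236, 2487 and 2618 in haploid late cycle 15, against 3490, 3309 and 3338 in diploid late cycle 14. It differed by -0.47 ± 0.06 with no overlap (adjusted p = 4.2e-06). The shares of these lower calls were under those of all genes at each stage, so being lower in haploids was not particular to the set.

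ND-18, ND-SGDH and ND-B14.7, accessory subunits of complex I, were higher in haploids at all 3 matched stages on the quantile scale. ND-18 had 790, 791 and 702 in haploid cycle 14, 750, 702 and 747 in haploid early cycle 15 and 659, 665 and 601 in haploid late cycle 15. It had 438, 375 and 443 in diploid cycle 13, 402, 440 and 460 in diploid early cycle 14 and 432, 486 and 445 in diploid late cycle 14. Every haploid array was above every diploid array, and no step within either ploidy was called. The differences were 0.86 ± 0.09, 0.76 ± 0.09 and 0.50 ± 0.09 (adjusted p = 2.6e-08, 4.3e-07 and 0.00013). As deposited they were 0.17, 0.21 and 0.25, of the same sign and not called (adjusted p = 0.45, 0.36 and 0.33). On the poly-A scale they were 0.05, 0.52 and 0.17, also not called. With arrays centred on their median all 3 were called (0.60, 0.42 and 0.42), and centred on ribosomal protein genes the first and the early stage were (0.39 and 0.40). ND-B14.7 differed by 0.54, 0.45 and 0.29, and its call at the late stage was lost without replicate 3 of either group (adjusted p of up to 0.0586).

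ND-SGDH had 2527, 2644 and 2352 in haploid cycle 14, against 1532, 1463 and 1402 in diploid cycle 13, and differed by 0.77 ± 0.06 (adjusted p = 4.3e-10). It differed by 0.51 ± 0.06 and 0.25 ± 0.06 at the early and late stages (adjusted p = 6.1e-07 and 0.0037). UQCR-Q had 532, 656 and 547 in haploid cycle 14, against 302, 338 and 283 in diploid cycle 13, with no overlap (0.91 ± 0.10, adjusted p = 1.1e-07), yet -0.05 ± 0.19 on the poly-A scale. ND-B12 had 116, 169 and 139 in haploid cycle 14, against 81, 79 and 73 in diploid cycle 13 (0.85 ± 0.18, adjusted p = 0.00061), and its sign turned as deposited (-0.39), centred on ribosomal protein genes (-0.16) and on poly-A controls (-0.51). UQCR-11, near background, had 65, 79 and 64 in haploid early cycle 15, against 38, 30 and 33 in diploid early cycle 14, of which 2 arrays were above background (1.06 ± 0.28, adjusted p = 0.0055). It was not called on the other scales, at 0.43 as deposited, 0.63 centred on the median, 0.62 on ribosomal protein genes and 0.74 on poly-A controls (adjusted p = 0.374, 0.143, 0.143 and 0.179). No member was higher in haploids under all 5 scales at any matched stage, where 1.32%, 1.67% and 1.46% of all tested genes were.

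A scale that cancels any shift shared by the set is the mean of the 47 measured members themselves, an alternative chosen after the data had been seen. Relative to that mean, ND-51 differed in haploids by -1.38, -1.38 and -1.14 in order of matched stage, and ATPsyngamma by -0.75, -0.79 and -0.53. ND-18 was higher by 0.48, 0.49 and 0.40 (adjusted p = 0.00038, 0.00045 and 0.0042). UQCR-Q was higher by 0.38 at the first stage (adjusted p = 0.0019), ND-SGDH by 0.51 and 0.33 at the early and late stages, and ND-B12 turned to -0.07.

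**Figure D4:**
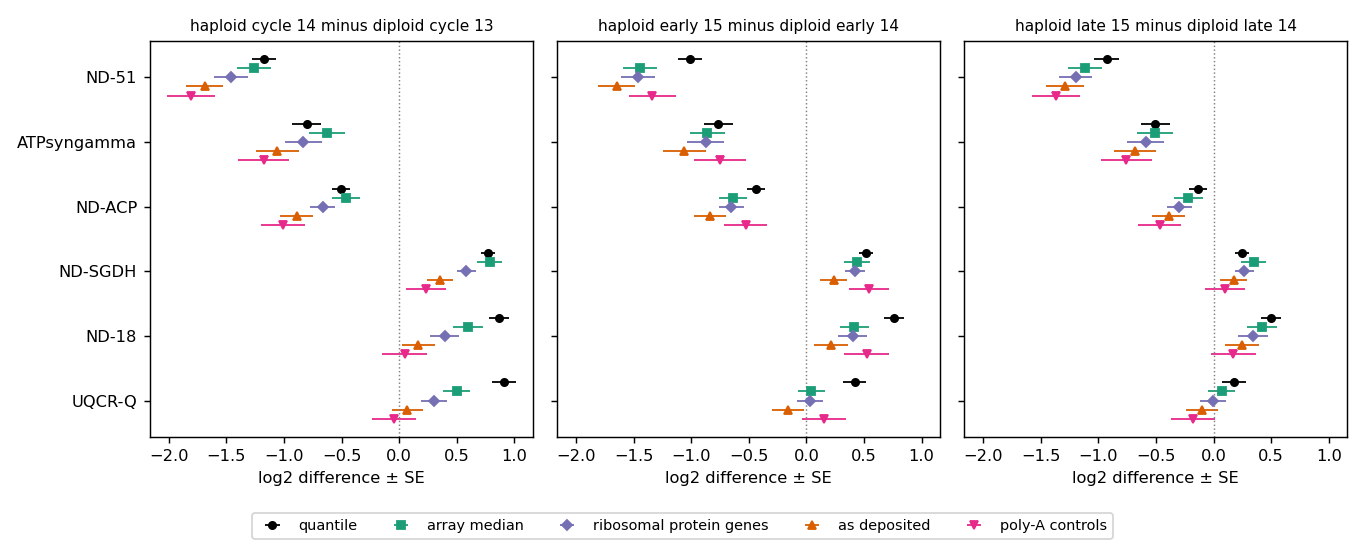
Haploid minus diploid log2 difference with its SE at the 3 matched stages for 6 members under 5 scales (marker and colour). ND-51 and ATPsyngamma lie left of 0 in every case, ND-18 and ND-SGDH lie right of it with sizes that differ between scales, and UQCR-Q crosses 0.

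At the same cycle and minutes, haploid cycle 14 against diploid early cycle 14, 15 members were higher and 5 lower, 25.4% and 8.47% of those tested, against 12.4% and 12.0% of all genes. The median difference was 0.12, against 0.05 for all measured genes. This comparison moved most with the scale, with 5 higher and 4 lower centred on the median, 3 and 4 centred on ribosomal protein genes, 0 and 24 centred on poly-A controls and 0 and 44 as deposited. All tested genes moved as well, with 411 and 1415, 260 and 1648, 38 and 4098, and 48 and 5462 in the same order of scales. Without replicate 2 of haploid cycle 14 the members' higher count was 8. Their lower count was 3 without replicate 1 of haploid cycle 14 or replicate 2 of diploid early cycle 14. The comparison uses arrays that also enter the matched comparisons and the steps.

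Lower under all 5 scales at the same cycle were ND-51, ND-75, ND-39 and ND-B14.5A (6.78%, against 11.1% of all genes). ND-75 had 314, 302 and 344 in haploid cycle 14, against 435, 539 and 533 in diploid early cycle 14, without overlap (-0.65 ± 0.12, adjusted p = 0.00028). ND-39 had 596, 610 and 510 in haploid cycle 14, against 739, 769 and 935 in diploid early cycle 14, without overlap (-0.51 ± 0.12, adjusted p = 0.0037). ND-51 differed by -0.80 ± 0.11 (adjusted p = 5.3e-06). ATPsyngamma was the other lower member on the quantile scale, at -0.38, with -0.39 for its second probe set (limma, adjusted p = 0.029 and 0.0081). Unlike at the matched stages, it was not lower under all 5 scales. ND-75 and ND-39 were called at none of the matched stages, with -0.30 ± 0.12 and -0.05 ± 0.12 against diploid cycle 13. ND-18 was higher by 0.81 ± 0.09 (adjusted p = 3.9e-07) on the quantile scale and by 0.01 as deposited. ND-SGDH and UQCR-Q were higher by 0.47 ± 0.06 and 0.42 ± 0.10, and turned to -0.19 and -0.40 as deposited and to -0.12 and -0.33 on the poly-A scale.

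The difference between the haploid and the diploid step was tested as an interaction. For the first step, 2 members were higher and 3 lower, 3.39% and 5.08% of those tested, against 4.72% and 6.38% of all genes, and for the second step 0 were higher and 3 lower, 0% and 5.08%, against 8.02% and 9.8% (limma, and 2 members higher at an unadjusted p below 0.05 in the second). As deposited and centred on ribosomal protein genes no member was called in either interaction. Centred on the median the counts were 0 higher and 0 lower for the first step and 2 and 0 for the second. On the poly-A scale they were 3 and 0 for the first and 0 and 0 for the second. All tested genes had 547 and 87, then 1105 and 163 as deposited, and 586 and 169, then 1091 and 318 centred on ribosomal protein genes. They had 496 and 449, then 1304 and 241 centred on the median, and 969 and 10, then 371 and 237 on the poly-A scale. The difference between the haploid and the diploid step of ND-51, whose haploid first step was itself not called (-0.21, adjusted p = 0.192), did not pass this test (0.17 ± 0.15 and 0.08 ± 0.15, adjusted p = 0.60 and 0.82), nor did that of the chosen probe set of ATPsynbeta (-0.06 ± 0.10 and 0.11 ± 0.10, adjusted p = 0.81 and 0.57), which does not show them to be equal. The dimmer probe set of ATPsynbeta passed it in the first step (0.95, adjusted p = 0.00012) and not in the second (-0.02, adjusted p = 0.961). Without 1 of 7 arrays in turn (replicate 3 of diploid cycle 13, any replicate of diploid early cycle 14, replicate 1 of haploid cycle 14, or replicate 1 or 3 of haploid early cycle 15) the higher count of the first step was 1. Its lower count was 0 without replicate 1 of diploid cycle 13, of diploid early cycle 14 or of haploid early cycle 15, and 1 without replicate 3 of diploid early cycle 14 or replicate 1 or 2 of haploid cycle 14. The second step's lower count was 0 or 1 without any array other than replicate 3 of diploid early cycle 14 or replicate 3 of haploid late cycle 15, and its higher count was 1 without replicate 2 of diploid early cycle 14.

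**Figure D5:**
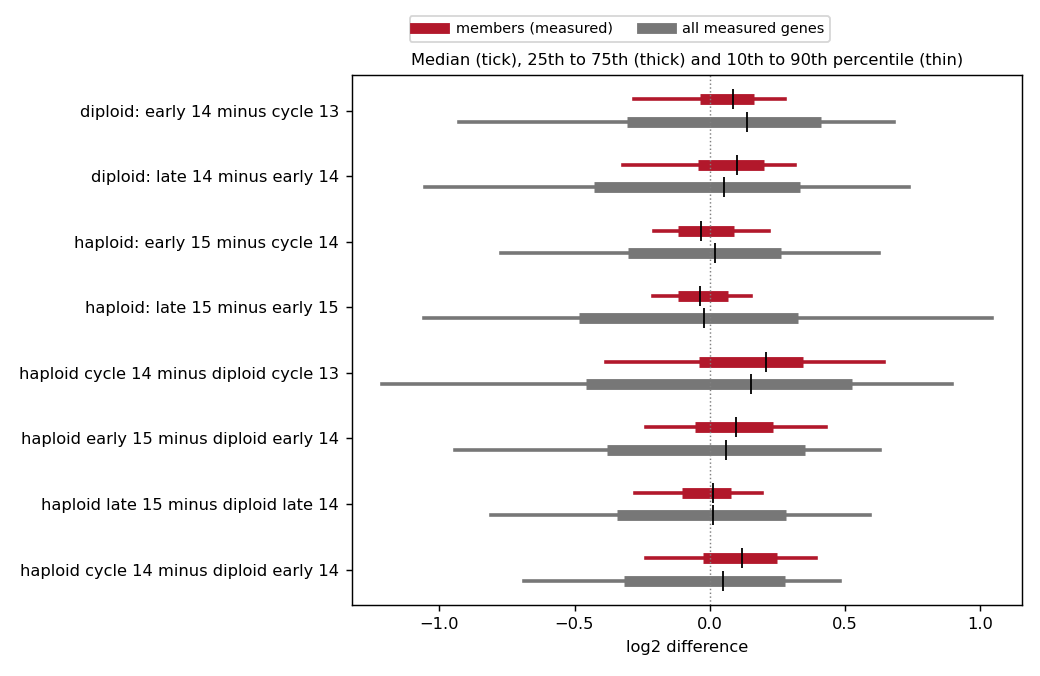
Log2 differences of the 47 measured members (red) and of the 5691 measured genes (grey) in 8 comparisons, as the median (tick), the middle 50% of genes (thick bar) and the 10th to 90th percentile (thin bar). The medians lie within 0.21 of 0, and the red bars are shorter than the grey bars in each comparison.

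Genes of the same pathway outside the symbol rule were read from a list. Among 10 further subunits under other symbols, complex II included, was blw, the alpha subunit that alternates with beta in the catalytic head of ATP synthase. It had 2137, 2171 and 3225 in haploid cycle 14, 1607, 1461 and 1865 in haploid early cycle 15 and 1781, 1388 and 1555 in haploid late cycle 15. It had 7364, 7492 and 7033 in diploid cycle 13, 4354, 5298 and 5400 in diploid early cycle 14 and 2310, 2140 and 2436 in diploid late cycle 14. Its haploid values were below the diploid ones without overlap at each matched stage (-1.57, -1.61 and -0.55, SE 0.12 each, adjusted p = 3.3e-10, 5.5e-10 and 0.0015), also under each of the other 4 scales. Its second step differed between ploidies by 1.06 ± 0.17 (adjusted p = 0.00011, and 0.184 on the poly-A scale), with -1.12 in diploids and -0.06 in haploids. Of the other 9, the only gene called at all 3 matched stages on the quantile scale was RFeSP, the Rieske protein of complex III. It differed by 0.32, 0.39 and 0.33 (limma, adjusted p = 0.030, 0.013 and 0.048). Its values on the other scales are not given.

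Other lists were read on the quantile scale, and their counts on the other scales are not given. Of all tested genes, 24.3% were higher and 18.2% lower in haploid cycle 14 against diploid cycle 13. In haploid cycle 14 against diploid early cycle 14 the shares were 12.4% and 12.0%. Over the second diploid step they were 17.4% and 16.3%. Of 69 mitochondrial ribosomal protein genes, 44 were higher and 10 lower in haploid cycle 14 against diploid cycle 13 (median 0.39), and 34 and 4 in haploid cycle 14 against diploid early cycle 14 (median 0.28). Of 41 cytoplasmic ribosomal protein genes, 4 were higher and 1 lower in haploid cycle 14 against diploid cycle 13 (median 0.05). Of 12 genes of the tricarboxylic acid cycle, which supplies NADH and succinate, 4 were higher and 6 lower there (median -0.18). These include SdhB, SdhC and SdhD of complex II, which are also in the list of further subunits above. Of 9 genes of glycolysis, 0 were higher and 8 lower (median -1.79). Among them Eno averaged 1055 in haploid cycle 14, against 4328 in diploid cycle 13. Over the second diploid step, glycolysis had 1 higher and 5 lower (median -0.71), against 11 and 6 of the 66 members. Of 7 assembly factors 2 were higher and 3 lower at the first matched stage, and of 9 regulators of mitochondrial genes 2 and 3. Among these, TFAM, which packages mitochondrial DNA, averaged 1115 in haploid cycle 14, against 1109 in diploid cycle 13.

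Markers of other tissues moved with stage and ploidy beside these results. Of 6 markers of pole cells and germ plasm, 4 were lower and 2 higher in haploid cycle 14 against diploid cycle 13. Of all tested genes, 18.2% were lower there and 24.3% higher. Among the lower markers, osk averaged 860, against 3776, and gcl 1953, against 3718. The higher markers were vas, at 93.8 against 47.8, and aub, at 960 against 700. None of the 6 was below background on all arrays of either group. Of 9 markers of yolk nuclei and amnioserosa (8 tested), 4 were higher, with a summed level of 2180 to 2727, against 953 to 1156, and 5 were below background on all arrays in each group. At the same cycle, haploid cycle 14 against diploid early cycle 14, osk differed by -0.05 and gcl by -0.17 (limma, adjusted p = 0.901 and 0.262). In that comparison 1 pole cell marker was higher and 1 lower, and 0 and 1 of the yolk and amnioserosa list. Of all tested genes, 12.4% were higher and 12.0% lower in it. Over the second diploid step 0 of the pole cell list were higher and 3 lower, where 17.4% and 16.3% of all tested genes were. There osk averaged 154 in late cycle 14, against 890 in early cycle 14, and gcl 489, against 2198. Of 5 markers of older embryos, elav alone left background, and it averaged 829 in haploid late cycle 15, against 255 in diploid late cycle 14. The 12 markers of the mother and the egg shell summed to 131 to 452 per array over all groups. The 3'/5' ratio of control transcripts, a measure of RNA integrity, differed between controls in its direction. For Act5C the group medians were 6.25, 5.69 and 5.81 in the haploid groups, against 4.63, 4.47 and 4.97 in the diploid groups, in order of stage. For GAPDH they were 11.8, 11.2 and 7.20 in the haploid groups, against 13.2, 14.2 and 12.8 in the diploid groups. For eIF-4a they were 2.76, 2.81 and 2.75 in the haploid groups, against 3.00, 3.11 and 2.88 in the diploid groups. The part of these markers and of RNA integrity in the differences between haploids and diploids was not tested.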

How the data were processed

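Total RNA of staged embryo pools had been hybridised to 18 one-colour Affymetrix arrays. The deposited intensities are MAS5 signals on a linear scale, per the submitters' processing notes, while neither its version nor a scaling target is given in the sources used here. Of 18769 probe sets that are not controls, the platform annotation gave 1 symbol for 13647, several for 402 and none for 4720, and symbols were updated through a RefSeq table. Subunit genes without a single-symbol probe set (ND-23, ND-24, ND-30, ND-49, UQCR-C1, UQCR-C2 and COX6B among them) were not analysed here.

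Intensities were quantile normalised on the linear scale, then floored at 0.1 and log2 transformed. A probe set was tested when 3 or more arrays reached an intensity of 12.0, the 40th percentile, which left 14553. The background level is the 95th percentile over 20 negative controls. Groups were compared with limma 3.58.1 in R 4.3.3, in 1 fit over the 6 groups with an intensity trend, and p-values were adjusted (Benjamini-Hochberg) over all tested probe sets, with a threshold of 0.05. The fit was tested on simulated data. Alternatives were 4 other scales (deposited, and centring on the array median, on 47 ribosomal protein probe sets or on 24 poly-A control probe sets), no filter, the 60th percentile, a pseudocount of 16, no intensity trend, the mean of a gene's probe sets, the replicate block and leaving out each array. Centring on the members was added after seeing the data.

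Named in each comparison were the called members with the 3 greatest increases and the 3 greatest decreases, provided that the groups did not overlap and that values were above background on each array of the brighter group. Second copies, members below background and members with disagreeing probe sets were named as well, while the brightest member of each complex, also in the rule, is not given because levels of different probe sets are not comparable; other names were chosen after their values were seen. The members and lists were chosen with earlier results of these data known. Groups share replicate numbers, but residuals of same-numbered arrays correlated by -0.10 to 0.11 over 45 pairs, with 1 above 0.1, so the numbers were not taken to pair the arrays.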

Additional observations from a re-analysis of the deposited data

Results flagged for a closer look

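The haploid step differed from the diploid step for 8 members by the interaction test on the quantile scale (limma). In the first step the haploid difference minus the diploid difference was 0.53 for ND-B14.5A, 0.48 for COX7A, -0.49 for UQCR-Q, -0.36 for ND-MNLL and -0.35 for COX7B. In the second step it was -0.40 for ND-B14.5B, -0.31 for ND-20 and -0.26 for ND-SGDH. COX7A kept its call whichever of the 12 arrays was left out. The call was lost in 4 of 12 cases for COX7B, in 7 for ND-B14.5A, UQCR-Q and ND-MNLL, in 9 for ND-B14.5B and ND-SGDH and in 10 for ND-20. Another probe set of COX7B gave -0.11 for the same test (adjusted p = 0.631). None of the 8 was called as deposited or with arrays centred on their median or on ribosomal protein genes, and on the poly-A scale COX7A (0.94) and ND-B14.5A (1.04) were called.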

How the results depend on the processing

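Most counts of members depended on the scale, as did the counts of all tested genes given with each comparison above. As deposited, higher and lower counts were 22 and 0 in the diploid first step, 18 and 0 in the haploid first step, 1 and 14, 0 and 12 at the first and early matched stages and 0 and 44 at the same cycle, and no member was higher in either second step or at the late matched stage, or called in an interaction. Centred on poly-A controls they were 0 and 0, then 0 and 10 in the diploid steps, 36 and 0, then 0 and 43 in the haploid steps, 0 and 15, then 1 and 2, then 0 higher at the matched stages, 0 and 24 at the same cycle and 0 lower in both interactions. Median centring gave 0 and 3 in the diploid first step, 0 higher in the other steps, 2 higher at the early matched stage, 5 higher at the same cycle, and 0 and 0, then 2 and 0 in the interactions. Ribosomal protein centring gave 0 higher in each of the 4 steps, 3 lower in the haploid first step, 9 higher, then 3 and 10, then 1 higher at the matched stages, 3 higher at the same cycle and no call in either interaction. Centring on the members gave 3 and 2 higher in the diploid steps, 2 lower in the haploid first step, 5 higher at the late matched stage, 0 lower in both interactions and 1 higher in the second. Without the intensity trend there were 4 and 3, then 4 higher in the diploid steps, 2 and 3 lower in the haploid steps, 8 higher at the same cycle, 0 and 0 in the first interaction and 0 lower in the second. With no filter 7 were higher in the diploid second step and 1 lower in the second interaction, where the 60th percentile filter gave 1 higher. Averaging probe sets gave 2 higher in the haploid second step. The 68 counts of 0 among the alternatives had 0 to 9 members at an unadjusted p below 0.05 (limma, median 1). Leaving out each array gave higher counts of 4 to 10, 4 to 10, 1 to 4 and 1 to 2 in the diploid and haploid steps, 19 to 26, 8 to 15 and 2 to 3 at the matched stages, 8 to 17 at the same cycle and 1 to 3 and 0 to 1 in the interactions. Lower counts were 4 to 6, 4 to 6, 4 to 5 and 3 to 6, then 6 to 8, 5 to 6 and 4 to 6, then 3 to 5, then 0 to 4 and 0 to 4.

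Signs turned as deposited for ATPsynbeta (0.11) and ATPsynC (0.21) in the haploid first step, ND-B12 (-0.39) at the first matched stage, and ND-SGDH (-0.19) and UQCR-Q (-0.40) at the same cycle. They turned on the poly-A scale for ND-13B (-0.16), ND-B14.5A (-0.13) and ND-B14.5B (-0.14) in the diploid second step, ND-ACP (0.081), ATPsynbeta (0.35) and ATPsynC (0.45) in the haploid first step, ND-B16.6 (-0.35) in the haploid second step, UQCR-Q (-0.048) and ND-B12 (-0.51) at the first matched stage, ND-SGDH (-0.12) and UQCR-Q (-0.33) at the same cycle, and UQCR-Q (0.20), ND-MNLL (0.18) and COX7B (0.22) in the first interaction. ND-B12 also turned centred on ribosomal protein genes (-0.16) and on the members (-0.074). Averaging probe sets turned ATPsynbeta in the diploid (0.20) and haploid (0.24) second steps and COX7B (0.11) in the first interaction. The cause was not tested, other than that the second probe set of ATPsynbeta differs in direction in the second steps. With the replicate block, 8 members were higher and 5 lower in the diploid first step and 12 and 6 in the second, and the block, the pseudocount and the 60th percentile filter changed none of the 54 named results. With 1 array left out, named results kept their call in 298 cases and lost it in 74. Levels near background, as of UQCR-11, have the least precision.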
